A study of Mus musculus with 4 samples.

Results

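Ca5b and Upp1 are 2 of the 16152 genes counted in blood mononuclear cells of mice with acute pancreatitis. They were singled out because monocytes held more of both transcripts at 96 h than in the control library, so that contrast is given below as a description and nothing is drawn from it. The animals were wild-type C57BL/6J mice of 6 to 8 weeks, and the pancreatitis groups had received 7 intraperitoneal doses of cerulein, given as 60 mg/kg in the series' design text. Cerulein is a peptide that overstimulates the acinar cells of the pancreas. Untreated mice gave the control blood (0 h), and cerulein-treated mice gave blood after 12 h, 24 h or 96 h, with the last named recovery in the labels, although that text gives 168 h in place of 96 h. Each group is 1 library of 10x 5′ single-cell RNA, and the number of mice behind a library is not given in the sources used here. Differences between libraries therefore have no replicate check. All intervals are exact 95% intervals for counting error only, and a bound beside 0 UMIs is the level or share that 3 UMIs would give. Pancreatitis, cerulein, the day of collection and the library cannot be told apart.

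Both genes encode metabolic enzymes. Ca5b encodes carbonic anhydrase 5B, a mitochondrial enzyme that interconverts carbon dioxide and bicarbonate, the form of carbon used by mitochondrial carboxylases. Upp1 encodes uridine phosphorylase 1, which splits uridine into uracil and ribose 1-phosphate. It is the entry to pyrimidine nucleoside breakdown, and the sugar phosphate can enter the pentose phosphate pathway. Monocytes circulate as classical cells, which enter inflamed tissue, and as nonclassical cells, which patrol the vessel wall.

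In the mouse annotation (GENCODE vM21, mm10), Ca5b matches Car5b (ENSMUSG00000031373), on chromosome X from 163976822 to 164027997 on the minus strand. Upp1 (ENSMUSG00000020407) lies on chromosome 11 from 9118103 to 9136170 on the plus strand. The gene names in the files are in part rat names: 28 begin with RT1-, 1691 begin with AABR07 and 0 begin with H2-. Ca5b is not the mouse symbol either. Which gene models were counted is therefore not known, and the coordinates are those of the mouse reference. The 250 bases before a RefSeq start of each gene are shown because the 2 genes followed different orders over the libraries. They are RefSeq promoter windows of GRCm38.p6, chrX:164028011-164028260 on the minus strand for Ca5b and chr11:9117758-9118007 on the plus strand for Upp1, the first of its 3 listed starts, which differs from the GENCODE start given above. Capitals mark matches on either strand to the GC box GGGCGG and to the AP-1 motif TGANTCA, which do not overlap.
Ca5b: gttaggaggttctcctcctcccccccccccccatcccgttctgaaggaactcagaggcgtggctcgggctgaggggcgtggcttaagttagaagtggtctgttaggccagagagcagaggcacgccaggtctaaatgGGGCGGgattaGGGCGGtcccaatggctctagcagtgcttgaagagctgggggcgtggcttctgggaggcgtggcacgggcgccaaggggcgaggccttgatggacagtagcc
Upp1: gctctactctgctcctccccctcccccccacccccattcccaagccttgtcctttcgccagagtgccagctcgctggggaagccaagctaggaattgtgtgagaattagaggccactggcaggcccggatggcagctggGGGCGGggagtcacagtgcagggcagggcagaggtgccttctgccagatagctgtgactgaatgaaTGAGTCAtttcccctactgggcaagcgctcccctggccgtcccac

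The Ca5b window held 2 GC boxes and no match to the AP-1 motif. In the Upp1 window there were 1 GC box and 1 AP-1 match. The window of the second listed start overlaps it and holds the same stretches, while that of the third, from 9118257 on, held 0 of either. Of 27025 mouse promoter windows of the same length, 1 per gene, 32.9% held the GC box and 6.9% the AP-1 motif. Of the further motifs searched on both strands, the CCAAT box was found once before Ca5b, in no Upp1 window, and in 34.5% of all windows. The ETS motif AGGAAGT, the TATA box TATAAA and the E-box CACGTG were also searched and had no match in any window of either gene. The GC content was 63.6% for Ca5b and 62.4% for Upp1, beside a median of 52.0% over all windows. A match is a run of letters and not a shown binding site.

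After filtering, 10464 to 12929 cells per library were used, with a median of 3625 to 4883 UMIs (unique molecular identifiers, which count RNA molecules) per cell. Cells were assigned to lineages by marker genes and are called monocyte-like and so on. The sum of a lineage's UMIs in a library was scaled to CPM, the number of a gene's UMIs per 1000000. Monocyte-like cells held all 8 listed monocyte markers in each library. A further 6.89% to 9.45% of cells carried markers of more than 1 lineage and were left out. Monocyte-like cells made up 31.9% of cells at 0 h, 29.8% at 12 h, 37.5% at 24 h and 13.9% at 96 h. Barcodes listed for the 24 h library were identical to those of 12 h (11663 barcodes), while the other lists shared 10 to 51. Cells were therefore taken from the matrix columns. The control list held 4340 barcodes for 14569 cells.

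Ca5b alternated between the libraries of monocyte-like cells. Its level was 38.7 CPM in the control (interval 35.7 to 42.0; 594 UMIs in 3637 cells) and 111 CPM at 12 h (106 to 116; 1934 UMIs in 3114 cells). It was 20.04 CPM at 24 h (18.5 to 21.7; 597 UMIs in 4094 cells) and 131 CPM at 96 h (125 to 138; 1448 UMIs in 1791 cells). Thus 12 h and 96 h were high, and 24 h lay below the untreated library. No 2 of the 4 intervals overlapped. The level at 96 h was 3.39 times the control (3.08 to 3.74), the contrast that chose the gene.

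The step from 24 h to 96 h was larger than that from control to 96 h. Ca5b at 96 h was 6.56 times its level at 24 h (5.96 to 7.23), and 3 of 2555 genes tested had a larger ratio. At least 2-fold higher at 96 h were 1.41% of them, while 1.14% were lower by as much. Here and below a gene counted as tested with at least 50 CPM in either library and 20 UMIs over both. At 24 h Ca5b stood at 0.181 times its 12 h level (0.165 to 0.199), with 1.78% of 2639 genes at least 2-fold lower. Between 12 h and 96 h it differed little, with a ratio of 1.19 (1.11 to 1.27). Over the 4 libraries the level thus did not increase steadily up to 96 h.

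Upp1 in monocyte-like cells followed another order. Its level was 29.0 CPM in the control (26.4 to 31.8; 445 UMIs), 162 CPM at 12 h (157 to 169; 2838 UMIs), 184 CPM at 24 h (179 to 189; 5489 UMIs) and 88.2 CPM at 96 h (82.8 to 93.9; 972 UMIs). The control was lowest, 12 h and 24 h were highest, and 96 h lay between them. Against 24 h, the level at 96 h was 0.479 times as high (0.447 to 0.513). Although 96 h was 3.04 times the control (2.72 to 3.41), Upp1 at recovery was thus on a lower level than in either earlier pancreatitis library. Its ratio of 96 h to 12 h was 0.543 (0.504 to 0.584).

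Against the same control library, both genes were at least 2-fold higher at 12 h, as were 2.51% of 2705 tested genes. Ca5b was 2.86-fold higher (2.61 to 3.14) and Upp1 5.60-fold higher (5.07 to 6.20). In cells with 1000 or more genes and 5% or less of mitochondrial UMIs, the Ca5b ratio at 12 h was 1.42, under the 2-fold line, and that at 24 h was 0.315, past it. At 24 h Upp1 alone of the 2 was at least 2-fold higher, with a ratio of 6.35 (5.77 to 7.01) beside 2.10% of 2621 genes. Ca5b at 24 h was 0.518 times the control (0.461 to 0.581) in all monocyte-like cells, short of the 2-fold line. At 96 h a level at least 2-fold higher was found for 0.884% of 2602 genes. There 3 genes had a larger ratio than Ca5b and 5 a larger ratio than Upp1. Just around them stood Hp at 3.53, Slpi at 3.32 and Tppp3 at 2.91. The 3 ratios of each gene share the control library.

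**Figure D1:**
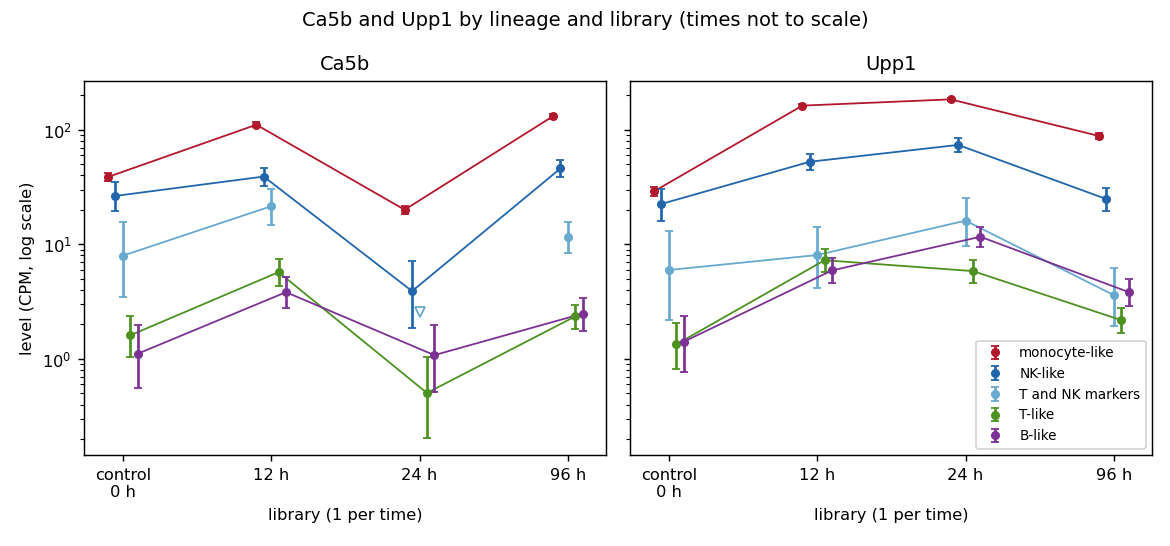
Levels of Ca5b (left) and Upp1 (right) in CPM on a log axis, for the control library and 3 times after the first cerulein dose, 1 library per time. Points are summed UMIs of a marker-gated lineage, bars are exact 95% Poisson intervals, lines join the libraries of a lineage, and the open triangle is the level of 3 UMIs where none was found. Ca5b is higher at 12 h and 96 h than at 0 h and 24 h in every lineage drawn, while Upp1 is highest at 24 h in each lineage drawn but T-like cells, where 12 h is highest.

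The ratios of 96 h to control and to 24 h kept their side of 1 under each of 10 alternative settings, but this stricter cell filter moved Ca5b ratios to control by more than 1.5 times. Under it 347 control monocyte-like cells remained. Their Ca5b level was 74.7 CPM, and the ratio of 96 h to control was 1.99 in place of 3.39. Under the same filter the level was 106 CPM at 12 h, 23.5 CPM at 24 h and 149 CPM at 96 h. The order of the libraries was thus kept, while 12 h was only 1.42 times the control. The median share of mitochondrial UMIs in monocyte-like cells was 6.82% in the control, 5.80% at 12 h, 6.33% at 24 h and 6.07% at 96 h. Its part in the result was not tested.

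RNA of genes listed as neutrophil markers was also found among monocyte-like cells. The summed level of 10 listed neutrophil markers there was 222 CPM at 0 h, 10644 CPM at 12 h, 1743 CPM at 24 h and 628 CPM at 96 h. Most of it was S100a8 and S100a9, which monocytes and neutrophils share, so the sum is no measure of neutrophil RNA alone. In order of time S100a8 was 99.1, 6463, 985 and 371 CPM, and S100a9 20.9, 4054, 623 and 138 CPM. Like Upp1 the summed level was higher at 12 h and 24 h than at 0 h and 96 h, a difference made almost wholly by S100a8 and S100a9. From 12 h to 24 h the sum fell, while Upp1 in all monocyte-like cells went from 162 to 184 CPM. Under the stricter cell filter Upp1 went from 185 to 141 CPM over this step, and in nonclassical cells from 94.1 to 83.0 CPM. The part of these markers' RNA in the Upp1 result was not tested. Cxcr2, Retnlg and Ltf were at 0 in the control, Ltf also at 12 h and 24 h, and none at 96 h. In monocyte-like cells with no marker of any other lineage, a choice made after seeing the data, Upp1 was 30.2 CPM at 0 h, 108 CPM at 12 h, 113 CPM at 24 h and 87.2 CPM at 96 h. The ratio of 96 h to 24 h was then 0.770 in place of 0.479, and that of 24 h to control 3.75 in place of 6.35. Ca5b in the same cells was 42.5, 129, 25.9 and 157 CPM in order of time.

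The share of monocyte-like cells with a Ca5b UMI moved with the level. To compare shares at equal depth, each cell was thinned to 2000 UMIs, leaving out 122, 27, 59 and 16 shallower cells in order of time. Ca5b was then found in 7.06% of cells in the control (6.23% to 7.95%), 21.0% at 12 h (19.5% to 22.4%), 4.31% at 24 h (3.71% to 4.99%) and 24.3% at 96 h (22.4% to 26.4%). The shares follow the order of the CPM levels. Without thinning they were 12.9%, 41.0%, 12.4% and 51.0%, with a median of 5673 UMIs per cell at 24 h beside 3664 in the control.

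Upp1 was found in 5.69% of thinned monocyte-like cells at 0 h (4.95% to 6.51%), 20.7% at 12 h (19.3% to 22.1%), 22.2% at 24 h (21.0% to 23.5%) and 15.4% at 96 h (13.8% to 17.2%). Unthinned shares were 10.3%, 36.9%, 47.2% and 32.1%. The intervals of 12 h and 24 h overlapped. Among thinned cells, those with at least 2 Ca5b UMIs made up 0.853%, 3.79%, 0.173% and 4.51% of monocyte-like cells in order of time, and for Upp1 0.427%, 4.47%, 5.95% and 2.76%.

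**Figure D2:**
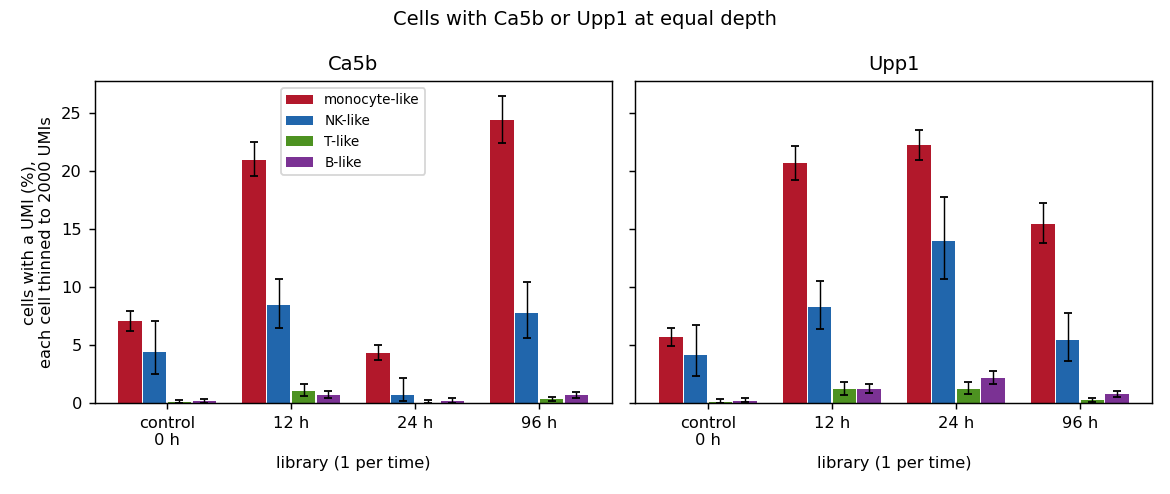
Share of cells with at least 1 UMI of Ca5b (left) or Upp1 (right), in percent, after each cell was thinned to 2000 UMIs. Bars are lineages in 1 library per time and whiskers are exact 95% binomial intervals. Ca5b reaches 21.0% and 24.3% of monocyte-like cells at 12 h and 96 h, and no T-like or B-like share exceeds 2.17% for either gene.

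Cells with a Ca5b UMI were compared with those without one for Upp1. Among thinned Ca5b-positive monocyte-like cells, 5.24% held an Upp1 UMI in the control (2.82% to 8.80%), beside 5.72% of Ca5b-negative cells (4.95% to 6.58%). At 12 h the values were 20.1% (17.1% to 23.4%) and 20.8% (19.2% to 22.5%). At 24 h they were 16.1% (11.0% to 22.4%) and 22.5% (21.2% to 23.9%), and at 96 h 16.7% (13.3% to 20.5%) and 15.04% (13.2% to 17.1%). At 24 h the share in Ca5b-negative cells lay just above the interval of the positive cells. Within the subsets described below it lay inside that interval. In classical cells at 24 h the shares were 29.4% (17.5% to 43.8%) in Ca5b-positive and 36.1% in Ca5b-negative cells. In nonclassical cells they were 10.6% (5.75% to 17.4%) and 12.4%. The differences were not tested. These cells share their library, so the values describe it only.

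In both monocyte-like subsets Ca5b kept the order of all monocyte-like cells, while Upp1 did so in classical cells only. Subsets were cut from a score of Fn1, Vcan, F13a1 and Ly6c against Cx3cr1, Spn and Itgal, a range rather than a type, with 7.54% to 17.7% of cells near the cut. Classical cells made up 16.7% of monocyte-like cells at 0 h, 34.0% at 12 h, 41.7% at 24 h and 38.6% at 96 h. Ca5b in classical cells was 31.3 CPM (26.1 to 37.3), 96.8 CPM (90.5 to 104), 15.4 CPM (13.6 to 17.3) and 110 CPM (102 to 119) in order of time. In nonclassical cells it was 41.4 CPM (37.7 to 45.3), 125 CPM (118 to 133), 27.0 CPM (24.1 to 30.1) and 156 CPM (146 to 168). In CPM, Ca5b was higher in nonclassical than in classical cells in each library, with intervals apart in all 4. The unthinned share of cells with a Ca5b UMI was larger in classical cells in each library. It was 15.5% beside 12.4% at 0 h and 55.2% beside 48.3% at 96 h. Classical cells had the higher median of UMIs per cell in each library. Among thinned cells the share was larger in nonclassical cells in each library, with intervals that overlapped at 0 h and 12 h.

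Upp1 was higher in classical than in nonclassical cells in the 3 cerulein libraries. In classical cells the levels were 31.8 CPM (26.5 to 37.8) at 0 h, 228 CPM (218 to 238) at 12 h, 252 CPM (245 to 260) at 24 h and 105 CPM (96.7 to 113) at 96 h. In nonclassical cells they were 28.0 CPM (25.01 to 31.3), 94.1 CPM (87.7 to 101), 83.0 CPM (77.9 to 88.3) and 68.6 CPM (61.6 to 76.3). Nonclassical cells thus held less Upp1 at 24 h than at 12 h, with a ratio of 0.882 (0.803 to 0.969), beside 1.11 (1.05 to 1.17) in classical cells. The subsets overlapped in the control and lay apart in the 3 other libraries. The ratio of 96 h to 24 h was 0.415 in classical cells (0.381 to 0.452) and 0.827 in nonclassical cells (0.730 to 0.936). With both subsets weighted equally, the ratios of 96 h to control were 3.67 for Ca5b and 2.90 for Upp1. The 10 listed neutrophil markers, S100a8 and S100a9 among them, also differed between the subsets. They summed to 478, 19802, 2330 and 1038 CPM in classical cells in order of time, beside 131, 1084, 870 and 145 CPM in nonclassical cells. Their part in the Upp1 difference between subsets was not tested.

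**Figure D3:**
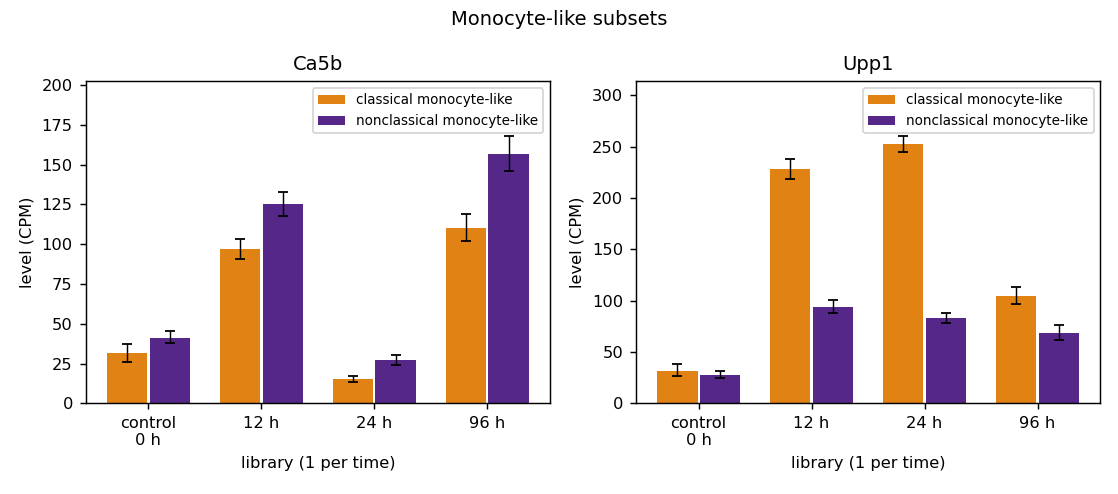
Levels of Ca5b (left) and Upp1 (right) in CPM in classical and nonclassical monocyte-like cells, 1 library per time. Bars are summed UMIs and whiskers exact 95% Poisson intervals. Ca5b is higher in nonclassical cells throughout, and Upp1 reaches 252 CPM in classical cells at 24 h beside 83.0 CPM in nonclassical cells.

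The transcripts were not limited to monocytes, since NK-like cells carried both. Natural killer cells are cytotoxic lymphocytes of the innate system, and 365, 748, 406 and 517 cells were gated in order of time. Ca5b in them was 26.5 CPM in the control (19.4 to 35.2; 47 UMIs), 39.0 CPM at 12 h (32.6 to 46.5; 127 UMIs), 3.90 CPM at 24 h (1.87 to 7.18; 10 UMIs) and 45.9 CPM at 96 h (38.5 to 54.4; 135 UMIs). The order of the libraries was that of monocyte-like cells, with the 24 h interval below the 3 others. The ratio of 12 h to control was smaller, at 1.48 (1.05 to 2.11). At 96 h the level was 11.8 times that at 24 h (6.20 to 25.1) and 1.74 times the control (1.24 to 2.47). The values lay under 50 CPM, so Ca5b was not among the tested genes of this lineage.

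Upp1 in NK-like cells was 22.5 CPM in the control (16.1 to 30.7; 40 UMIs), 52.6 CPM at 12 h (45.0 to 61.1; 171 UMIs), 73.8 CPM at 24 h (63.6 to 85.1; 189 UMIs) and 24.8 CPM at 96 h (19.5 to 31.2; 73 UMIs). The control and 96 h overlapped, with a ratio of 1.10 (0.740 to 1.66). At 12 h the level was 2.33 times the control (1.65 to 3.38), beside 0.562% of 2493 genes at least 2-fold higher. At 24 h it was 3.28 times the control (2.32 to 4.73), beside 0.732% of 2459 genes. From 24 h to 96 h the ratio was 0.337 (0.253 to 0.443), beside 0.803% of 2490 genes at least 2-fold lower.

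Monocyte RNA in the NK gate was measured beside these levels. The 8 monocyte markers summed to 385, 517, 672 and 291 CPM in NK-like cells in order of time, beside 22328 to 38039 CPM in monocyte-like cells. Clec4a3, a lectin of myeloid cells, was at 0 there in the control and at 24 h. Lyz2, Csf1r, Cd68 and Fn1 in NK-like cells stood at 0.841% to 2.73% of their monocyte-like level. Ca5b stood at 68.3%, 35.3%, 19.5% and 34.9% and Upp1 at 77.6%, 32.4%, 40.0% and 28.2%. In the NK-like cells with no monocyte marker, Ca5b was 29.1, 39.6, 4.10 and 49.3 CPM in order of time. In those with a UMI of Ncr1, a receptor of NK cells, it was 26.9, 40.7, 3.32 and 44.7 CPM. In the 62 to 138 NK-like cells per library with no marker of any other lineage, it was 29.7, 31.0, 5.15 and 58.7 CPM, so the level at 12 h was then close to the control. Upp1 in these few cells was 26.4, 58.3, 108 and 12.2 CPM.

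Cells with both T and NK markers (153, 213, 134 and 475 cells) held 7.96 CPM of Ca5b at 0 h (3.44 to 15.7), 21.5 CPM at 12 h (14.7 to 30.4) and 11.6 CPM at 96 h (8.39 to 15.7). At 24 h they held 0 UMIs, which allows up to 2.54 CPM. Upp1 in them was 5.97 CPM (2.19 to 12.99), 8.07 CPM (4.17 to 14.1), 16.1 CPM (9.69 to 25.1) and 3.602 CPM (1.92 to 6.16). As in NK-like cells, 24 h was lowest for Ca5b and highest for Upp1, although several intervals overlap.

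T-like and B-like cells held little of either transcript. In T-like cells Ca5b was 1.61, 5.72, 0.505 and 2.35 CPM and Upp1 1.34, 7.27, 5.84 and 2.18 CPM in order of time. In B-like cells Ca5b was 1.11, 3.82, 1.08 and 2.49 CPM and Upp1 1.41, 5.92, 11.6 and 3.83 CPM. Ca5b in B-like cells stood at 1.89% to 5.38% of the monocyte-like level, beside 1.06% to 4.003% for the 4 monocyte genes. Taken library by library, the Ca5b values in B-like cells lay within that guide at 0 h and above it at 12 h, 24 h and 96 h. They rest on 10 to 42 UMIs, so no expression is read from them. Thinned B-like cells with a Ca5b UMI made up 0.160% at 0 h and 0.681% at 96 h, and thinned T-like cells 0.106% and 0.342%. Median depth was 3664 UMIs in monocyte-like, 2762 in B-like and 4946 in T-like control cells.

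**Figure D4:**
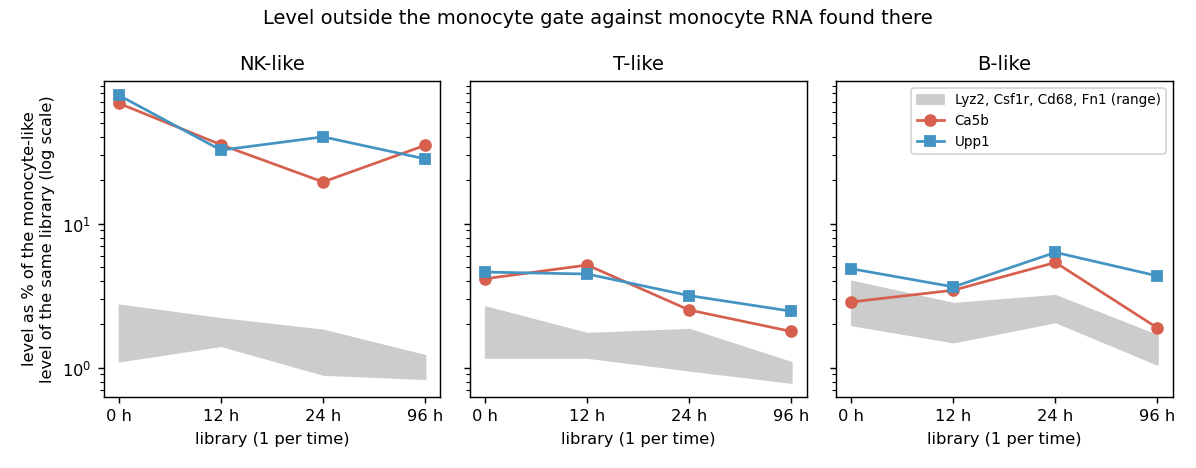
Level of Ca5b and Upp1 in NK-like, T-like and B-like cells as a percentage of the monocyte-like level of the same library, on a log axis. The grey band is the range of 4 monocyte genes (Lyz2, Csf1r, Cd68, Fn1), a guide to monocyte RNA found outside monocytes. Both genes lie far above the band in NK-like cells, at 19.5% to 77.6%. In T-like cells both lie above it in each library, at 1.79% to 5.17%. In B-like cells Upp1 lies above it in each library, at 3.64% to 6.32%, while Ca5b lies within it at 0 h and above it at 12 h, 24 h and 96 h.

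Neutrophil-like cells carried Upp1 and few Ca5b UMIs. They were few in this density-separated fraction, with 24, 72, 154 and 13 cells, so the control and 96 h libraries are given as values only. Upp1 was 419 CPM at 0 h (229 to 703), 481 CPM at 12 h (374 to 610), 848 CPM at 24 h (749 to 956) and 220 CPM at 96 h (88.3 to 453). At 24 h 74.7% of these cells held an Upp1 UMI, with a median of 1961 UMIs per cell. Ca5b had 0 UMIs in the 154 cells at 24 h, which allows a share of up to 1.95% of cells with a UMI and sets no limit on cells expressing it at this depth. At 12 h its 4 UMIs lay in 1 of 72 cells. Cells with monocyte and neutrophil markers together held 279 CPM of Upp1 at 12 h (106 cells) and 294 CPM at 24 h (131 cells).

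Summed over all cells, the 96 h library looked different from the monocytes alone. Ca5b was 15.9, 50.7, 10.8 and 30.0 CPM and Upp1 12.8, 85.4, 117 and 20.8 CPM in order of time. The ratio of 96 h to control was 1.89 for Ca5b and 1.63 for Upp1, in a library with 13.9% monocyte-like cells beside 31.9% in the control. A bulk measurement could not tell fewer monocytes from less RNA per monocyte.

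Few genes of monocyte-like cells alternated as Ca5b did there. A count added after its pattern was seen took genes whose 12 h and 96 h levels both exceeded both the control and the 24 h level by at least 1.5-fold. In monocyte-like cells 3 of 2788 genes (0.108%) met it: Ca5b, Hba-a2 and Mnda, an interferon-inducible nuclear protein gene. Ca5b had the largest margin, at 2.86-fold, and was the only one of the 3 at 2-fold. In classical cells 4 of 2674 genes met it and in nonclassical cells 4 of 2816, again with Ca5b first. Among NK-like cells 9 of 2627 genes (0.343%) met it, among T-like cells 4 of 2069 and among B-like cells 3 of 2577. Ca5b, under 50 CPM in those lineages, was not among these genes. The direction was chosen from these values and is no independent result.

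Haemoglobin RNA alternated alike, so its values stand beside those of Ca5b. Hba-a2, an alpha globin chain of red cells, was 20.9, 86.9, 15.2 and 35.8 CPM in monocyte-like cells in order of time, and 17.7, 88.0, 10.9 and 29.8 CPM in T-like cells. Its level was therefore much the same in both lineages. Ca5b in T-like cells was 1.79% to 5.17% of that in monocyte-like cells. The 5 erythroid markers summed to 53.6, 102, 26.5 and 65.5 CPM in monocyte-like cells and to 52.9, 122, 26.5 and 67.02 CPM in NK-like cells. Of the 5, Alas2 was at 0 in monocyte-like cells at 96 h. The part of red cell RNA in the Ca5b result was not tested.

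Other carbonic anhydrases were scarce. Of 13 in the files, 4 besides Ca5b had at least 20 UMIs in monocyte-like cells, and none reached 50 CPM, so none could be called. Car2, a cytosolic form, was 3.13, 3.03, 2.42 and 2.54 CPM in order of time, with a 96 h ratio of 0.812 (0.491 to 1.32). Car6, a secreted form, was 0.456 CPM at 0 h and 1.45 CPM at 96 h, and Car13, another cytosolic form, 0.652 and 0.998 CPM. The median log2 ratio of the list at 96 h, 0.61, was that of Car13, whose ratio was 1.53 (0.590 to 4.02). No shift of the list is read from it. The median of -0.03 over all tested genes is for genes with at least 50 CPM in either library.

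Partners of mitochondrial bicarbonate were also at low levels. None of the 12 measured members of the bicarbonate transport and carboxylase list reached 50 CPM, so none could be called. At any level, 3 were at least 2-fold higher than the control at 12 h, 1 was as much lower at 24 h and 1 higher at 96 h. The share of all genes past this fold at such low levels was not counted, so nothing is read from these numbers. Pccb, a subunit of propionyl-CoA carboxylase, was 7.04, 16.7, 11.4 and 12.2 CPM in order of time, so that 12 h and 96 h were above 0 h and, for 96 h narrowly, above 24 h, and its 96 h ratio was 1.73 (1.33 to 2.25). Its partner subunit Pcca was 2.61 CPM at 0 h and 1.63 CPM at 96 h, with a ratio of 0.627 (0.338 to 1.12). Acaca, the cytosolic acetyl-CoA carboxylase, had a ratio of 0.696 (0.305 to 1.498). Slc4a1, the anion exchanger of red cells, was the 1 gene higher at 96 h. It had 3 UMIs at 0 h and 5 at 96 h, with a ratio of 2.32 (0.451 to 14.9). The list's median log2 ratio at 96 h was -0.01.

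Of the 25 other measured genes of pyrimidine salvage, breakdown and transport, 6 reached 50 CPM in the comparisons of 12 h and 24 h with the control, and 5 in that of 96 h. Among these, 1 was at least 2-fold higher at 12 h, and none was 2-fold apart in either direction at 24 h or 96 h. Over all tested genes the shares past this fold were 2.51% upward and 1.4% downward at 12 h, 2.1% and 2.33% at 24 h, and 0.884% and 0.423% at 96 h, so no difference from all genes is read from so few. At any level, 4 of the 25 were at least 2-fold higher and 1 lower at 12 h, 1 higher and 2 lower at 24 h, and 1 lower at 96 h. No share of all genes was counted at any level, so nothing is read from these numbers either. The gene called at 12 h was Nme1, a nucleoside diphosphate kinase, at 40.4, 136, 60.8 and 46.6 CPM in order of time. Uck2, a uridine kinase that competes with Upp1 for uridine, was 2.35, 6.47, 2.72 and 4.45 CPM, with a 96 h ratio of 1.89 and a lower bound of 1.21. Slc29a3, a nucleoside transporter of lysosomes, had a ratio of 1.38 (1.17 to 1.62). Cad, an enzyme of pyrimidine synthesis, was the 1 gene lower at 96 h. It had 8 UMIs at 0 h and 2 at 96 h, with a ratio of 0.348 (0.036 to 1.74). Dctd, a deaminase of deoxycytidylate, had a ratio of 0.646 (0.307 to 1.29). Upp2, the other uridine phosphorylase, was not analysed here. The list's median log2 ratio was 0.11 at 12 h, -0.17 at 24 h and -0.07 at 96 h.

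Use of the ribose phosphate that Upp1 releases was measured by 12 genes. Of the 7 that reached 50 CPM none was called in either direction at any time, beside the shares of all tested genes just given, such as 0.884% higher and 0.423% lower at 96 h. With 7 genes this is no result about the list. Taldo1, transaldolase of the pentose phosphate pathway, was 664, 1105, 1011 and 965 CPM in order of time, with a 96 h ratio of 1.45 (1.41 to 1.49). Pgm1, a phosphoglucomutase, had a ratio of 1.47 (0.987 to 2.21). Prps2, which makes phosphoribosyl pyrophosphate, had a ratio of 0.861 (0.696 to 1.06). Over the 12 genes the median log2 ratio at 96 h was -0.01.

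The genes beside Ca5b were taken from the mouse annotation, which may not be the one counted. Of 4 neighbours on the X chromosome, Ap1s2 and Zrsr2 were in the files. Ap1s2, an adaptor subunit of vesicle traffic, was 251, 152, 153 and 201 CPM in monocyte-like cells in order of time. Zrsr2, a splicing factor, was 9.84, 11.1, 7.92 and 8.62 CPM. Neither was higher at 96 h than in the control. In the order of the deposited gene list Bmx, a tyrosine kinase gene, also stands near Ca5b. It was 0.587, 3.26, 1.64 and 1.997 CPM in order of time, with a 96 h ratio of 3.40 (1.51 to 8.40) from 9 and 22 UMIs. Sun3 and Abca13, the neighbours of Upp1 in the files, had under 20 UMIs. Because Ca5b is X-linked in the mouse, Y-linked transcripts were checked, and Eif2s3y was 86.0, 88.6, 134 and 116 CPM over all cells. Y-linked RNA was thus present in every library.

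Likeness of pattern was measured by Pearson's r of log2(CPM + 10) over 24 lineage-by-library sums, among 3777 genes, as a description. The sums share libraries and depth, and lineage differences weigh most. Closest to Ca5b was Fam46a (r = 0.889), followed by Spg21, Glud1 (mitochondrial glutamate dehydrogenase), Sdf2l1 and Hmox2 (a haem oxygenase). Fam46a in monocyte-like cells was 119, 110, 58.9 and 125 CPM in order of time, also lowest at 24 h. Closest to Upp1 was Stx11 (r = 0.950), a syntaxin of immune cells, followed by Asmtl, Tuba1c (a tubulin), Znhit1 and Mindy1. Stx11 was 41.8, 67.6, 77.9 and 63.3 CPM. Between Ca5b and Upp1 themselves r was 0.464. With a pseudocount of 1, 3 of the 5 genes closest to Ca5b and 1 of the 5 closest to Upp1 were the same.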

How the data were processed

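The 4 libraries of mouse blood mononuclear cells were assigned to their 4 groups by treatment and time from the labels. The deposited matrices hold raw UMI counts per gene and cell. Cell Ranger, Seurat and the build mm10 are named in the submitters' processing notes. Versions: not given in the sources used here. No deposited cell had under 301 genes or over 15% mitochondrial UMIs.

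Cells needed 200 or more genes and no more than 10% mitochondrial UMIs, and Scrublet (scanpy 1.11.5) removed 4.07% to 5.49% of them as doublets. A cell joined a lineage with at least 2 of its markers and at most 1 marker of any other lineage, a gate set after seeing the data. A cell with S100a8 and S100a9 at 5% or more of its UMIs and under 2 monocyte markers counted as neutrophil-like. Sums of UMIs were scaled to CPM. Poisson, Clopper-Pearson and conditional binomial intervals came from scipy 1.17.1. Lineages under 50 cells in a library were not compared. With 1 library per group no test was made. Ratio intervals were tested on simulated counts. Alternatives were other scalings, cell filters, gates and depths.

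The members and gene lists were chosen with earlier results of these data known. The named genes were the members, the 5 of highest correlation with each, the 2 largest and 2 smallest ratios at 96 h of each pathway list among genes with at least 20 UMIs, and the closest relatives and chromosome neighbours. Some genes that this rule names are not reported here. A called gene was at least 2-fold apart, at 50 CPM or more in either library.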

Additional observations from a re-analysis of the deposited data

Results flagged for a closer look

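Ca5b stood on opposite sides of the control level at 24 h and at the other times, with intervals that excluded 1. In monocyte-like cells the ratio to control was 2.86 at 12 h, 0.518 at 24 h and 3.39 at 96 h, and with the stricter cell filter 1.42, 0.315 and 1.99. Classical cells gave 3.09, 0.491 and 3.52, and nonclassical cells 3.03, 0.652 and 3.78. In NK-like cells the ratios were 1.48, 0.148 and 1.74. T-like cells gave 3.56 at 12 h and 0.314 at 24 h, from 7 UMIs at 24 h. The 3 times share 1 control library, and the difference between times was not tested, since each time is 1 library.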

How the results depend on the processing

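No paired analysis was possible because each group is 1 library, and for the same reason no replicate could be left out. Ca5b kept 12 h and 96 h above both 0 h and 24 h in 11 of 11 settings in monocyte-like cells and in 10 of 10 in NK-like, T-like and B-like cells each. Upp1 kept 12 h and 24 h above both 0 h and 96 h in the same settings. Under the stricter cell filter, Upp1 in monocyte-like cells was higher at 12 h than at 24 h, the reverse of the main order. The stricter cell filter moved the monocyte-like ratios of 96 h to control to 1.99 for Ca5b and 3.59 for Upp1, and that of 96 h to 24 h to 0.594 for Upp1. It moved the Ca5b ratio to control to 1.42 at 12 h and 0.315 at 24 h, and that of Upp1 at 12 h to 7.93. Thinning to 2000 UMIs gave 5.95 for Ca5b and 0.602 for Upp1 from 24 h to 96 h. For Upp1 over the same step, median-of-ratios scaling gave 0.444, the mean over cells 0.581, and cells with no marker of another lineage, an alternative chosen after seeing the data, 0.770. In T-like cells thinning turned the Ca5b ratio of 24 h to control from 0.314 to 1.01, with few UMIs left. In B-like cells with no other marker, Upp1 was 22.5 times the control at 24 h in place of 8.25. The stricter filter left under 50 control cells in the other lineages and gave no ratio there. The causes were not tested. Depth limits T-like and B-like cells, where Ca5b had 7 to 69 UMIs per library.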
